A study of Mus musculus with 6 samples.

Results

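The 8 genes described here make, bind and break down hyaluronan, and they were taken by name from the deposited comparison table: Has1, Has2, Has3, Cd44, Hmmr, Hyal1, Hyal2 and Vcan. All 8 were found among 24568 genes with a symbol. The series compared stable lines of MOE cells, which derive from the epithelium of the mouse oviduct, the organ called fallopian tube in women. The line with a p53 R273H plasmid gave 3 arrays, and the line with the empty vector, pCMV-Neo, gave 3. R273H is an arginine-to-histidine change in the DNA-binding domain of p53 that recurs in human tumours. Both lines were grown from antibiotic-selected colonies in a medium with serum, a growth factor, insulin, transferrin and estradiol. How many colonies made up a line is not stated, and RNA came from consecutive passages, so p-values measure the spread between passages. Line and plasmid cannot be told apart.

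Hyaluronan is a long, unsulfated sugar polymer of the matrix around cells. Has1, Has2 and Has3 are the synthases, which build the chain at the plasma membrane from UDP-glucuronic acid and UDP-N-acetylglucosamine and push it out of the cell. Cd44 is its main cell-surface receptor, and Hmmr (RHAMM) binds hyaluronan at the surface and the spindle inside dividing cells. Hyal2, anchored in the membrane, and Hyal1, a lysosomal enzyme, cut the chain. Vcan encodes versican, a large chondroitin sulfate proteoglycan that binds hyaluronan through its link domain. In the oviduct, a hyaluronan-rich matrix surrounds the ovulated egg, and in ovarian tumours Cd44 and versican have been studied in adhesion to the peritoneum.

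In the p53 R273H line Vcan rose 3.07-fold, Hyal1 2.83-fold and Cd44 1.38-fold. No synthase passed the test, nor did Hmmr or Hyal2. So 3 of the 8 genes rose and 0 fell at an adjusted p under 0.05 (limma, Benjamini-Hochberg over 24568 genes). By that rule 11.9% of all genes rose and 11.7% fell, 23.7% in either direction. Unadjusted, 4 of the 8 had limma p under 0.05, the fourth being Hyal2, as did 8273 of all 24568 genes. The median log2 fold change of the 8 was 0.25, beside 0.02 over all genes. Values here are log2 signals, and a difference of 1 is a 2-fold change. In such bulk samples fewer cells of a type and less RNA per cell cannot be told apart.

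The promoter windows of the 3 genes that rose, and of Hyal2 as the neighbour of Hyal1 on chromosome 9, are shown so that the genes that differ can be read side by side. They run from 250 bases before to 50 after the start of the gene and come from RefSeq on GRCm38.p6, which holds a window for 6 of the 8 genes. Capitals mark matches on either strand to the motifs searched.
Vcan (chr13:89742463-89742762, minus strand): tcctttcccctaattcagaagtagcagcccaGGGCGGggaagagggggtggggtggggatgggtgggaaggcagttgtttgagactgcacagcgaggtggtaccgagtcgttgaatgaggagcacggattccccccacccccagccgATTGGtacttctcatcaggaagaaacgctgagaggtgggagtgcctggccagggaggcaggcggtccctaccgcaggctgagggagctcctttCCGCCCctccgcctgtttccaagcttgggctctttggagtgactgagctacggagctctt
Hyal1 (chr9:107576700-107576999, plus strand): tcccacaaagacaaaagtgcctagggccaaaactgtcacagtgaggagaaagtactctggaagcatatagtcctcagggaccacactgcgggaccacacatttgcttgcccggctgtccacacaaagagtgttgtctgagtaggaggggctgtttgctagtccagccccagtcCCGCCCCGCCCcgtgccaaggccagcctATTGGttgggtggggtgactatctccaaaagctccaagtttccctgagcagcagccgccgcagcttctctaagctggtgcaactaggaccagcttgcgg
Cd44 (chr2:102901616-102901915, minus strand): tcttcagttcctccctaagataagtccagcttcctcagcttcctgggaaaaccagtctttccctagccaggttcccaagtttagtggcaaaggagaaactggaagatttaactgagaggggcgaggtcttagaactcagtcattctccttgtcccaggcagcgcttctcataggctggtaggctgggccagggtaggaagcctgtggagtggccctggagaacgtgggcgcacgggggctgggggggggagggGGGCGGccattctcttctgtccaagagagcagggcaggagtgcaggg
Hyal2 (chr9:107568913-107569212, plus strand): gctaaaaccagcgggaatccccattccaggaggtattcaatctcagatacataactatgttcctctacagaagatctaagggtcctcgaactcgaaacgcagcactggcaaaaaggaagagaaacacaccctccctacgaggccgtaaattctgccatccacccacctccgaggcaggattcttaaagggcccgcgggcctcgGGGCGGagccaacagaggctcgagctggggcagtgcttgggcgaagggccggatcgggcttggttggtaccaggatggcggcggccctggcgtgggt
One motif searched was the GC box, spelled GGGCGG. Others were the box with the letters CCAAT, which gives it its name, and an AP-1 site with the letters TGANTCA. A Snail-type E-box was searched as CACCTG. The TATA box was searched as TATAAA, and the p53 half-site by its usual consensus. Every printed window holds at least 1 GC box, which 35.7% of the 32851 windows in the table do. Vcan and Hyal1 have 2 each, and those of Hyal1 overlap by a single base. Vcan and Hyal1 also hold 1 CCAAT box each, as 37.4% of all windows hold at least 1, and Cd44 and Hyal2 hold 0. The AP-1 site, the Snail-type E-box, the TATA box and the p53 half-site were not matched in any of these 4 windows. They occur in 7.81%, 20.2%, 13.6% and 8.36% of all windows. Among the windows not printed, Hmmr holds 5 CCAAT boxes and Has1 holds 1 p53 half-site.

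By the brightest row of each gene, the synthases had the smallest changes of the 8 genes, and Has1 and Has3 were the dimmest. Has2, the synthase that makes very long chains, had log2 signals of 6.29, 6.41 and 5.99 in p53 R273H arrays, against 6.58, 6.14 and 6.54 in empty vector arrays (transcript cluster 17317167). The groups overlapped, and the spread within each was wider than for any other member, with SDs of 0.21 and 0.24. Its log2 fold change was -0.19 ± 0.16 (SE), with a 95% interval from -0.55 to 0.18 (limma adjusted p = 0.473). That interval holds anything from a fall to 0.682-fold up to a rise of 1.13-fold.

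A second transcript cluster, 17311633, carries the Has2 symbol and is dimmer. Its log2 signals were 3.30, 3.47 and 3.47 in p53 R273H arrays, against 4.28, 4.05 and 3.70 in empty vector arrays. Here the groups did not overlap. Its log2 fold change was -0.60 ± 0.16 (SE), and it missed the threshold when all transcript clusters were tested (limma adjusted p = 0.0554). With the transcript clusters of each gene averaged, Has2 had a log2 fold change of -0.39, which also missed the threshold (limma adjusted p = 0.0521). A long noncoding gene, Has2os, overlaps Has2 in the RefSeq table, and which transcript either cluster reads was not tested. Has2 lies on chromosome 15 (band D1), where 596 genes brighter than 4.53, the median of all transcript clusters, had a median log2 fold change of -0.40. Of those genes 24 rose and 320 fell, and the part of this chromosome-wide shift in the Has2 values was not tested.

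Has1 had log2 signals of 3.95, 4.06 and 4.15 in p53 R273H arrays, against 3.94, 3.73 and 3.87 in empty vector arrays. The groups did not overlap, but the gap between them was 0.01, and the log2 fold change of 0.21 ± 0.10 (SE) did not pass the test (limma adjusted p = 0.211). Has3, known for making shorter chains, had 4.06, 4.25 and 4.03 in p53 R273H arrays, against 4.14, 4.28 and 4.34 in empty vector arrays. Its groups overlapped, and the log2 fold change was -0.14 ± 0.11 (SE; limma adjusted p = 0.423). Has1 and Has3 lay below 4.53 on every array. Whether such dim signals exceed background was not tested, so a change of these genes could be missed. Has1 shares genomic sequence with Spaca6 in the RefSeq table.

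**Figure D1:**
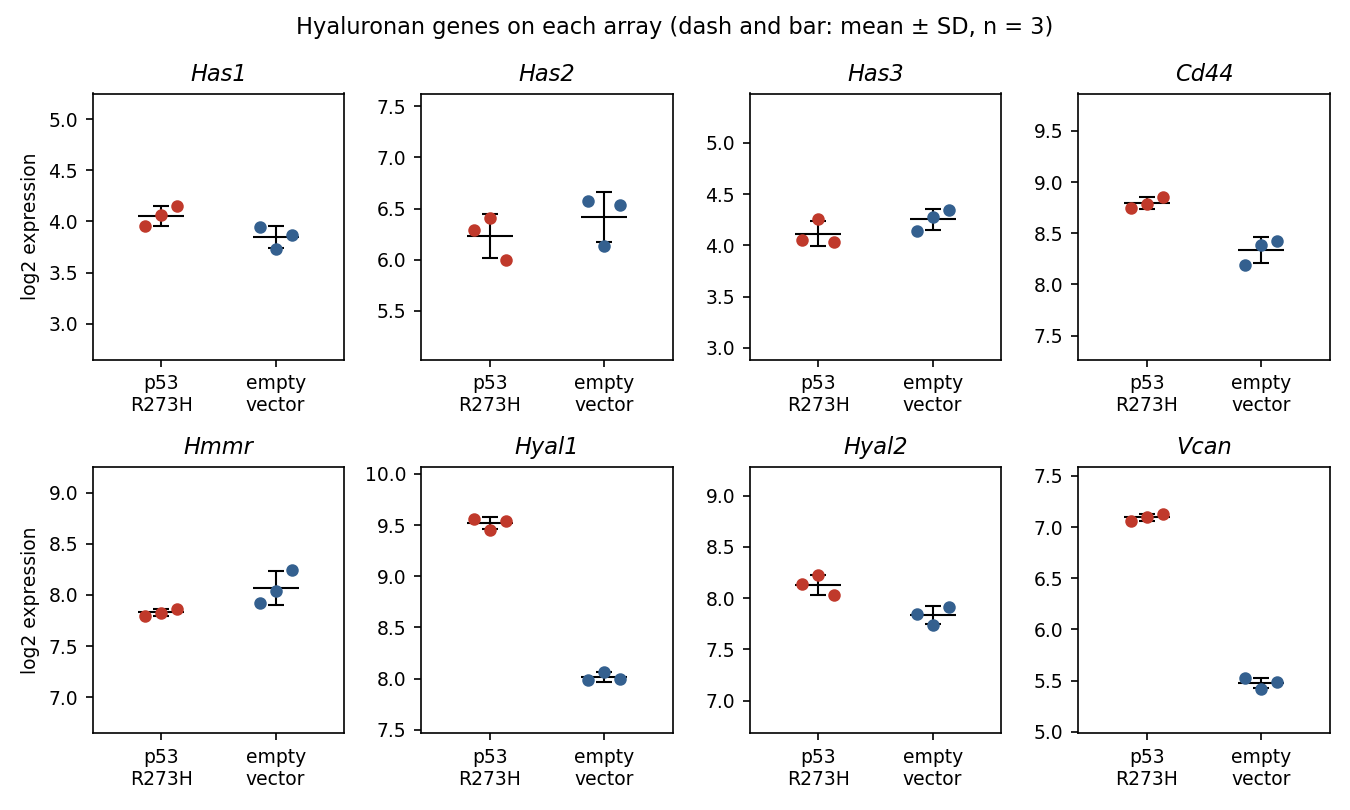
Log2 expression (y axis, with the same span in every panel) of the 8 hyaluronan genes on 3 p53 R273H arrays and 3 empty vector arrays; points are arrays, the dash is the mean and the bar the SD (n = 3 per group). Vcan and Hyal1 show the widest gaps between groups, 1.54 and 1.39, while the groups of Has2 and Has3 overlap.

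Of the receptors, Cd44 was higher in the p53 R273H line, and Hmmr did not pass the test. Cd44 had log2 signals of 8.75, 8.78 and 8.86 in p53 R273H arrays, against 8.19, 8.39 and 8.42 in empty vector arrays (transcript cluster 17388733, chromosome 2, band E2). All 3 p53 R273H arrays lay above all 3 empty vector arrays, by 0.33 at the least. The log2 fold change was 0.46 ± 0.10 (SE), with a 95% interval from 0.23 to 0.69 (limma adjusted p = 0.0123). Over 15 other settings its adjusted p ran from 0.000307 to 0.0438. On chromosome 2 the 1164 genes brighter than 4.53 had a median log2 fold change of 0.15, with 330 risen and 113 fallen, and its part in the change of Cd44 was not tested. One transcript cluster stands for Cd44, so these values do not separate its standard and variant splice forms.

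Hmmr had log2 signals of 7.80, 7.83 and 7.87 in p53 R273H arrays, against 7.92, 8.04 and 8.25 in empty vector arrays (transcript cluster 17261840, chromosome 11, band A5). All 3 p53 R273H arrays lay below the empty vector arrays, by 0.06 at the least. The log2 fold change of -0.24 ± 0.11 (SE) did not pass the test, with a 95% interval from -0.49 to 0.01 (limma adjusted p = 0.167).

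The hyaluronidases gave unequal changes. Hyal1 had log2 signals of 9.56, 9.45 and 9.54 in p53 R273H arrays, against 7.99, 8.07 and 7.99 in empty vector arrays (transcript cluster 17521428, chromosome 9, band F1-F2). The groups were 1.39 apart at their nearest arrays, with SDs of 0.06 and 0.05. Hyal1 rose by 1.50 ± 0.09 (SE) on the log2 scale, 2.83-fold with a 95% interval from 2.46-fold to 3.27-fold (limma adjusted p = 1.59e-05).

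Hyal2 had log2 signals of 8.14, 8.23 and 8.03 in p53 R273H arrays, against 7.84, 7.74 and 7.91 in empty vector arrays (transcript cluster 17521422, chromosome 9, band F1). The groups did not overlap, with a gap of 0.12. Its log2 fold change of 0.30 ± 0.10 (SE) did not pass the test (limma adjusted p = 0.0667, 95% interval from 0.07 to 0.53). Hyal2 passed when dim genes were left out, when array medians were subtracted and with a trended and robust variance (limma adjusted p from 0.015 to 0.0454). The change of Hyal1 exceeded that of Hyal2 by 1.20 ± 0.11 (SE) on the log2 scale. Taken array by array, this difference between the genes was higher in 3 of 3 p53 R273H arrays than in any empty vector array, with an exact two-sided permutation p of 0.1, the smallest that 3 arrays against 3 allow. In the RefSeq table Hyal1 overlaps Naa80, an actin N-acetyltransferase deposited under its older symbol Nat6, and Hyal3, another member of the hyaluronidase family.

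Nat6 had log2 signals of 8.52, 8.36 and 8.19 in p53 R273H arrays, against 6.91, 7.25 and 7.21 in empty vector arrays. It rose by 1.24 ± 0.13 (SE) on the log2 scale (limma adjusted p = 0.000341), and the change of Hyal1 exceeded it by 0.27 ± 0.13 (SE; exact two-sided permutation p = 0.2 over 6 arrays). Hyal3 had a log2 fold change of 0.55 ± 0.17 (SE) that did not pass the test (limma adjusted p = 0.0512). Whether the probes of these overlapping genes read the same transcripts was not tested. Of the other measured protein-coding genes nearest to Hyal1 and Hyal2, only Sema3b, a secreted semaphorin, passed the test, and it fell by 0.54 ± 0.09 (SE). On chromosome 9 the 811 genes brighter than 4.53 had a median log2 fold change of -0.09, with 90 risen and 205 fallen.

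**Figure D2:**
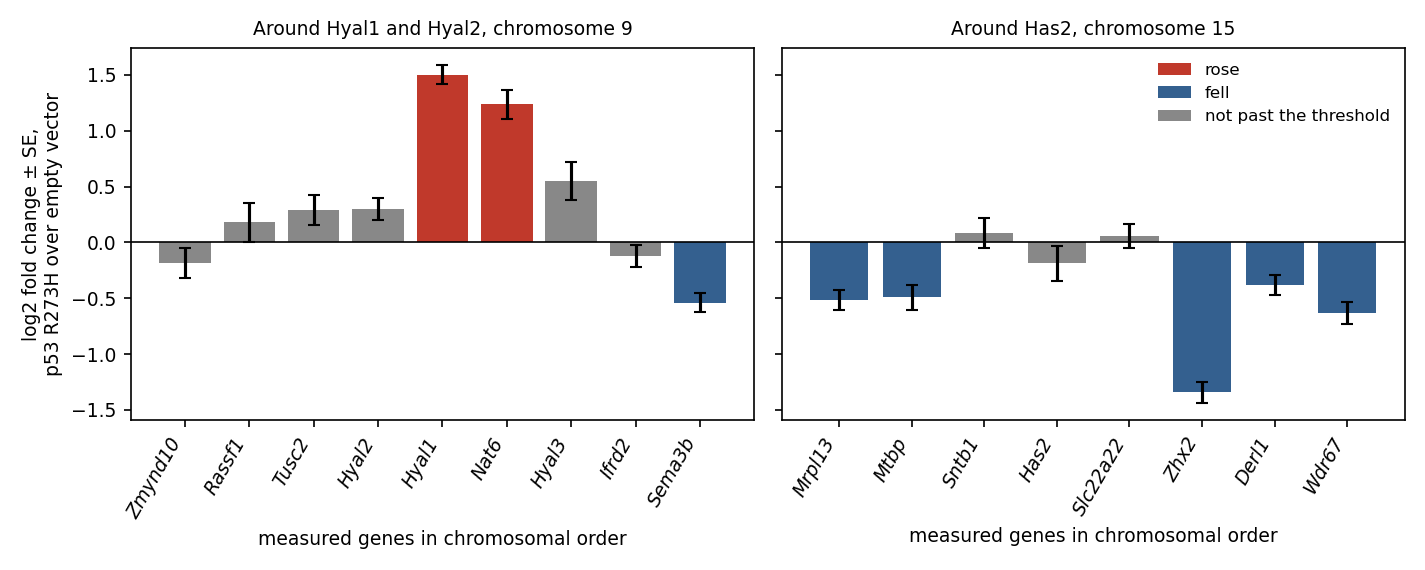
Log2 fold change of p53 R273H over empty vector (y axis; bars are limma estimates with SE, n = 3 arrays per group) for measured protein-coding genes in chromosomal order around Hyal1 and Hyal2 and around Has2. Hyal1 at 1.50 and the overlapping Nat6 at 1.24 stand above their neighbours on chromosome 9, and 5 of the 7 genes around Has2 fell.

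Versican showed the largest change of the 8 genes. Vcan had log2 signals of 7.06, 7.10 and 7.13 in p53 R273H arrays, against 5.52, 5.42 and 5.49 in empty vector arrays (transcript cluster 17294738, chromosome 13, band C3). The nearest arrays of the groups were 1.54 apart, and the SDs were 0.03 and 0.05. Vcan rose by 1.62 ± 0.09 (SE) on the log2 scale, 3.07-fold with a 95% interval from 2.67-fold to 3.53-fold (limma adjusted p = 9.99e-06). In the RefSeq table Vcan overlaps the long noncoding gene Gm4117, which was measured, and the pseudogene Gm16318. Whether the Vcan probes also read their transcripts was not tested. On chromosome 13 the 518 genes brighter than 4.53 had a median log2 fold change of -0.10. The link protein gene Hapln1, whose product locks versican onto hyaluronan, lies beside Vcan and was named after its value was seen. It was at 3.23 ± 0.22 in p53 R273H arrays and 3.20 ± 0.14 in empty vector arrays (SD, n = 3 each), below 4.53.

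Vcan and Hyal1 were the 2 members changed at least 2-fold, a rise that 2.56% of all genes showed with an adjusted p under 0.05, and 5.56% changed so in either direction. The groups did not overlap for 6 of the 8 genes, 5 higher and 1 lower in p53 R273H arrays, where 38.1% of all genes did not overlap, 20% of them higher and 18.1% lower, as shares of all genes. The exact two-sided permutation p was 0.1 for each of these 6, 0.4 for Has2 and 0.2 for Has3. In the authors' deposited table the step-up p-value was 0.000599 for Vcan, 0.000909 for Hyal1, 0.0373 for Cd44 and 0.0954 for Hyal2.

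**Figure D3:**
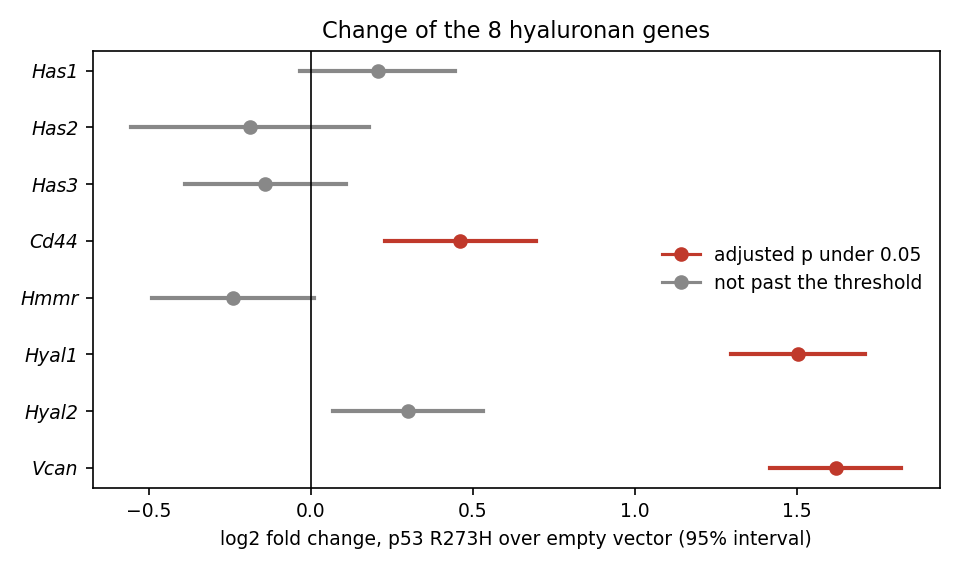
Log2 fold change of p53 R273H over empty vector (x axis) for the 8 hyaluronan genes, with the limma 95% interval as the line (n = 3 arrays per group). Vcan, Hyal1 and Cd44, in red, passed the adjusted threshold, and the intervals of the synthases and Hmmr include 0.

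The genes most like Hyal1 and Vcan over the 6 arrays were found by the Euclidean distance between log2 profiles, each minus its own mean, among 12534 named genes brighter than 4.53 in at least 1 group. Nearest to Hyal1 were Bok, a BCL2 family member, at a distance of 0.08, Dock8 at 0.12 and the PDZ and LIM domain gene Pdlim5 at 0.13. Among the 3 nearest to Vcan were Phtf2 at 0.10 and filamin C, Flnc, at 0.13. With 2 groups this distance mostly ranks genes by the size of their rise.

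The wider hyaluronan pathway was followed through 7 lists of 77 genes, all measured. Of these 15 rose and 15 fell, and 47 did not pass the test, with a median log2 fold change of 0.08. At 39.0% the share past the threshold stood beside 23.7% of all genes. Of the 77 genes 54 were brighter than 4.53 in either group, and of 14910 such genes 2708 rose and 2731 fell. These brighter genes passed more often than all genes did. The 23.7% set beside this and each list below is therefore not matched for brightness, and an excess of change in the lists was not tested.

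Enzymes that break hyaluronan down or trim its fragments mostly rose where they passed the test. Of 10 genes other than Hyal1 and Hyal2, 4 rose and 1 fell, with a median of 0.37. That is 50% of the list, beside 23.7% of all genes past the threshold. Tmem2, the surface hyaluronidase now named Cemip2, was at 7.35 ± 0.16 in p53 R273H arrays and 6.08 ± 0.25 in empty vector arrays (SD, n = 3 each) and rose by 1.26 ± 0.15 (SE) on the log2 scale. Gusb, which removes glucuronic acid from fragments, rose by 0.83 ± 0.10, and Hexa, which encodes a hexosaminidase subunit, rose by 0.48 ± 0.09. The exception was 9930013L23Rik, the older symbol of the hyaluronan-depolymerizing gene Cemip. It was at 4.33 ± 0.34 in p53 R273H arrays and 5.36 ± 0.08 in empty vector arrays and fell by 1.03 ± 0.17 on the log2 scale, with its p53 R273H mean below 4.53. Hyal4, Hyal5, Hyal6 and Spam1, known from testis and other tissues, lay below 4.53 in both groups.

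Of 10 enzymes that make the sugar precursors 1 rose and 1 fell, with a median of 0.07. These are 20% of the list, near the 23.7% of all genes. Gnpnat1, which acetylates glucosamine phosphate on the way to UDP-N-acetylglucosamine, was at 8.80 ± 0.08 in p53 R273H arrays and 9.73 ± 0.10 in empty vector arrays (SD, n = 3 each) and fell by 0.93 ± 0.10 (SE). Ugp2, which makes UDP-glucose, rose by 0.49 ± 0.09. Ugdh, which turns it into UDP-glucuronic acid, had a log2 fold change of 0.23 that did not pass (limma adjusted p = 0.161).

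Among other receptors 2 of 6 rose and 0 fell, with a median of 0.08. That is 33.3% of the list, beside 23.7% of all genes past the threshold. Tlr4, an innate receptor that hyaluronan fragments can engage, rose by 0.74 ± 0.14 (SE) on the log2 scale. Stab2, a scavenger receptor, rose by 0.59 ± 0.12 but lay below 4.53 in both groups. Of 18 other hyaluronan-binding and cross-linking proteins 1 rose and 2 fell, with a median of 0.07. This share of 16.7% lay below the 23.7% of all genes. Habp4 fell by 0.69 ± 0.10, the inter-alpha-trypsin inhibitor chain Itih4 fell by 0.69 ± 0.13, and aggrecan, Acan, rose by 0.40 ± 0.11, a call lost under 9 of 14 alternatives, among them the omission of p53 R273H array 1, 2 or 3 or of empty vector array 1 or 3 (limma adjusted p from 0.0192 to 0.108 over all of them). Acan lay below 4.53 in both groups.

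Partners of Cd44, proteases that can shed it and its splicing regulators, taken as 1 list, mostly fell where they passed the test. Of 12 genes 6 fell and 2 rose, with a median of -0.25. That is 66.7% of the list, beside 23.7% of all genes past the threshold. Of the 12 genes 11 were brighter than 4.53 in at least 1 group, and of 14910 such genes 2708 rose and 2731 fell. Nf2, Adam10, Adam17 and Esrp1 did not pass. The gelatinase Mmp9, which can dock on Cd44, was at 4.56 ± 0.31 in p53 R273H arrays and 5.88 ± 0.15 in empty vector arrays (SD, n = 3 each) and fell by 1.33 ± 0.17 (SE) on the log2 scale. Mmp9 lay below 4.53 in p53 R273H arrays 1 and 3, at 4.31 and 4.46, so the size of its fall may be limited by the dim signal. Cd74, an invariant chain that signals through Cd44, was at 4.40 in p53 R273H arrays, below 4.53, and 5.69 in empty vector arrays and fell by 1.28 ± 0.12, with the same limit for dim signals as Has1 and Has3. Spp1, the ligand osteopontin, fell by 0.52 ± 0.10. The splicing regulator Esrp2, which promotes epithelial variant exons of Cd44, fell by 0.62 ± 0.10. Of the linkers from Cd44 to actin, ezrin (Ezr) fell by 0.42 ± 0.09 and moesin (Msn) fell by 0.42 ± 0.10, while radixin (Rdx) rose by 0.33 ± 0.09. Ezr lost the call under 1 alternative, without empty vector array 2 (limma adjusted p = 0.0506, range over 15 alternatives 4.87e-05 to 0.0506). Msn lost it under 6, among them without p53 R273H array 2 or 3 or empty vector array 2 or 3, and its change was -0.05 when its transcript clusters were averaged (limma adjusted p = 0.845, the highest of a range from 6.4e-05). Rdx lost it under 8, among them without any single array of the 6 (limma adjusted p from 0.000991 to 0.117). Mmp14, a membrane protease that can shed Cd44, rose by 0.80 ± 0.09.

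Proteases that cut versican fell where they passed the test. Adamts9 was at 5.77 ± 0.16 in p53 R273H arrays and 8.08 ± 0.09 in empty vector arrays (SD, n = 3 each) and fell by 2.31 ± 0.11 (SE) on the log2 scale, a 4.97-fold difference (limma adjusted p = 6.04e-06). Adamts4 fell by 0.84 ± 0.12, with a p53 R273H mean of 4.59, near 4.53. Adamts1 fell by 0.31 ± 0.09, a call lost under 10 alternatives, among them without any single array of the 6 (limma adjusted p from 0.00077 to 0.127). Adamts5 had a log2 fold change of -0.16 that did not pass (limma adjusted p = 0.258). Nor did Adamts15 at 0.12 and Adamts20 at -0.06 (limma adjusted p = 0.519 and 0.708), both below 4.53 in both groups. Over this list of 13, which also holds matrix partners and chondroitin sulfate enzymes, 4 fell and 2 rose, with a median of -0.13. That is 46.2% of the list, beside 23.7% of all genes past the threshold. Csgalnact1, which starts chondroitin sulfate chains, was at 4.06 in p53 R273H arrays, below 4.53, and 5.35 in empty vector arrays and fell by 1.29 ± 0.16, an estimate that may be limited by the dim signal. The polymerizing factor Chpf rose by 0.75 ± 0.12. Fibrillin 1, Fbn1, rose by 0.38 ± 0.10, a call lost under 6 of 14 alternatives, among them without p53 R273H array 2 or empty vector array 1 or 2 (limma adjusted p from 0.0111 to 0.0892). Fbn1 lay below 4.53 in both groups.

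Of 8 mitotic partners of Hmmr, 3 rose and 1 fell, with a median of 0.24. That is 50% of the list, beside 23.7% of all genes past the threshold. The spindle kinase Aurka rose by 0.45 ± 0.09 (SE) on the log2 scale, Bard1 by 0.45 ± 0.10 and the spindle motor Kif11 by 0.42 ± 0.11, while Brca1 fell by 0.41 ± 0.12. Brca1 lost the call under 8 alternatives, among them without p53 R273H array 1 or 2 or any empty vector array (limma adjusted p from 0.0107 to 0.148). Kif11 lost it under 6, among them without p53 R273H array 3 or any empty vector array (limma adjusted p from 0.00102 to 0.0882). Bard1 lost it without empty vector array 1 (limma adjusted p = 0.0512, range over 15 alternatives 0.00239 to 0.0512). The proliferation marker Mki67 was at 9.79 ± 0.04 in p53 R273H arrays and 9.80 ± 0.08 in empty vector arrays (SD, n = 3 each).

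**Figure D4:**
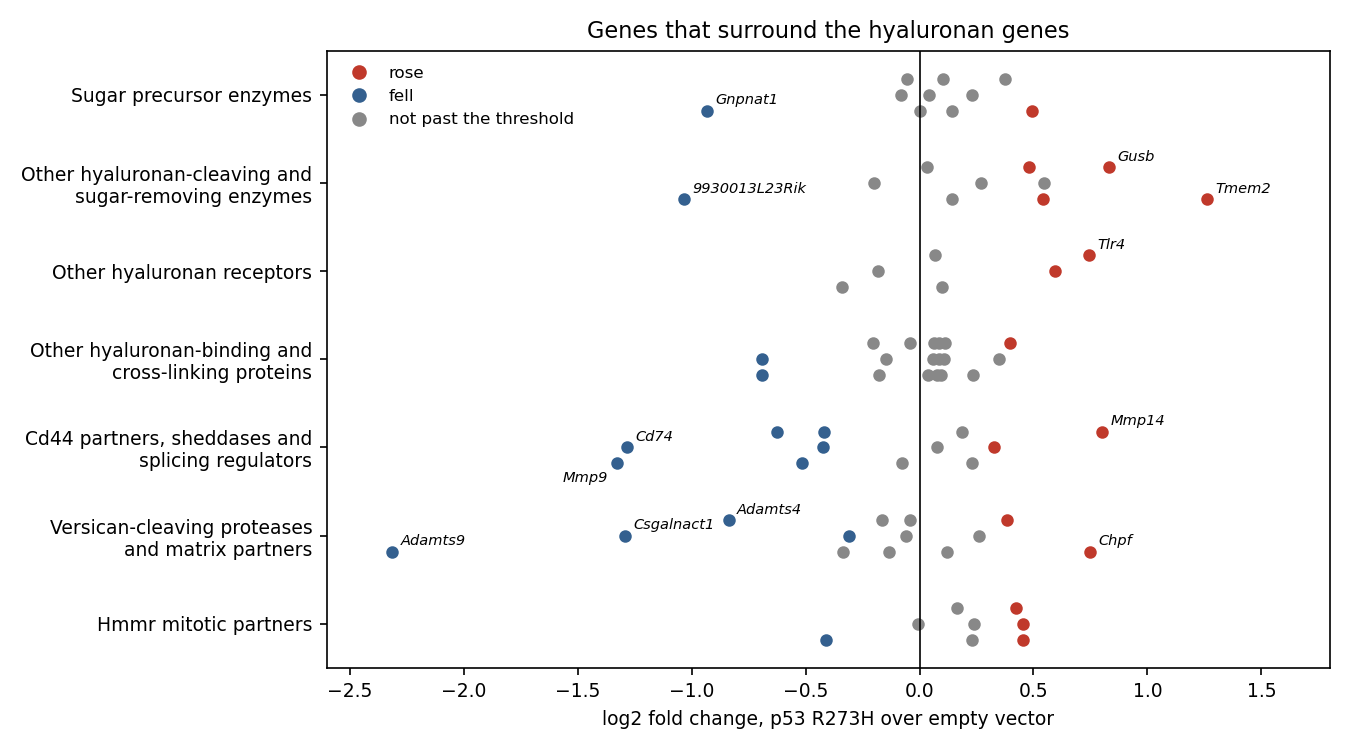
Log2 fold change of p53 R273H over empty vector (x axis) for the 77 genes of 7 hyaluronan pathway lists, 1 point per gene (n = 3 arrays per group); red rose and blue fell at a limma adjusted p under 0.05, and names are given past 0.7 in either direction. Adamts9 at -2.31 is the lowest point and Tmem2 at 1.26 the highest.

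Facts of the whole series bear on these values. Pearson's r across genes was 0.991 to 0.993 for arrays of 1 group and 0.963 to 0.966 for arrays of different groups, as a description, since genes are not independent of each other. Trp53 was lower in the p53 R273H line, at -0.68 ± 0.10 (SE) on the log2 scale (limma adjusted p = 0.00171). Whether its probes read the plasmid is not known here, so it does not check the labels. Counts in the marker lists stand beside 11.9% of all genes that rose and 11.7% that fell. Of 8 oviductal epithelial markers 1 rose and 3 fell, and their mean level was 7.64 to 7.69 in p53 R273H arrays and 7.96 to 7.98 in empty vector arrays. Pax8 was bright, at 10.48 in p53 R273H arrays and 10.21 in empty vector arrays, and so was Krt18, at 11.27 in p53 R273H arrays and 11.02 in empty vector arrays. The keratins that passed the test ran both ways: Krt19 was at 6.31 in p53 R273H arrays and 8.82 in empty vector arrays, Krt8 at 9.24 in p53 R273H arrays and 10.42 in empty vector arrays, and Krt7 at 9.78 in p53 R273H arrays and 7.98 in empty vector arrays. Ovgp1, the oviductal glycoprotein, which fell, was at 4.93 in p53 R273H arrays and 6.21 in empty vector arrays, and Epcam was below 4.53 in both. Of 7 fibroblast markers, a cell type rich in versican and hyaluronan, 3 rose and 1 fell, and their mean level was 5.16 to 5.24 in p53 R273H arrays and 4.28 to 4.53 in empty vector arrays. Decorin, Dcn, was at 8.02 in p53 R273H arrays and 3.32 in empty vector arrays. Its log2 fold change of 4.70 weighs most in the mean level of the fibroblast list. Col1a1 and Pdgfra also rose, by 0.72 and 1.11 on the log2 scale, and Col1a2 fell by 1.04. Col3a1 did not pass the test, and Lum and Thy1 lay below 4.53 in both groups. Of 6 mesothelial markers 1 rose and 4 fell, and their mean level was 6.10 to 6.12 in p53 R273H arrays and 7.42 to 7.46 in empty vector arrays. Lists of smooth muscle, endothelial, leukocyte and motile cilia markers each held 1 that rose and 1 that fell, of unequal size. Acta2, smooth muscle actin, was at 11.71 in p53 R273H arrays and 9.89 in empty vector arrays, a 3.53-fold rise, and Cnn1 fell by 0.86 on the log2 scale. Kdr, a receptor of endothelial cells, was at 6.29 in p53 R273H arrays and 4.53 in empty vector arrays, a 3.39-fold rise, and Tie1 fell by 0.35 on the log2 scale. Ptprc rose by 0.60 while below 4.53 in both groups, Cd68 fell by 0.73, Rsph1 rose by 0.58 and Foxj1 fell by 0.88. The mean levels of these 4 lists were 6.66 to 6.83, 4.54 to 4.72, 4.55 to 4.58 and 4.81 to 4.87 in p53 R273H arrays, against 6.54 to 6.74, 4.32 to 4.40, 4.49 to 4.61 and 4.83 to 4.99 in empty vector arrays. The part of these differences in the changes of Vcan, Hyal1 and Cd44 was not tested.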

How the data were processed

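RNA from 6 samples was prepared for Affymetrix arrays with a biotin label, per the labels. The deposited matrix holds log2 values of 41345 transcript clusters, and how they were normalized is not stated. Their log2 scale was checked: differences of group means matched the log2 of the ratio in the authors' comparison table within 6.64e-05. Each row of that deposited table has, per the file headers, a ratio, a signed score made from it, and the p-value of each row before and after step-up adjustment. No depth exists for arrays; their number limits the precision.

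Symbols came from that table; 26 had been turned into dates or numbers, and 20 were restored through RefSeq (GRCm38.p6). Left out were 145 rows that name several genes. The brightest row stood for each of 1616 genes with several, so that 24568 genes were tested, dim ones included. The comparison used limma 3.58.1 (R 4.3.3; lmFit, then eBayes; two-sided) with Benjamini-Hochberg adjustment and a threshold of 0.05, and single genes by an exact permutation of the 6 arrays. In data simulated for this comparison on 24568 genes, 67 of 100 genes changed 2-fold were called. So were 97 of 100 changed by 2 on the log2 scale and 12 of 24368 unchanged genes. With so few changed genes the adjusted threshold is stricter than in these data, where 5814 genes were called. No set test was run. The files name no build, so coordinates are those of the RefSeq promoter table only.

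The members and lists were chosen with earlier results of these data known. Named are the members, Trp53, the list genes past the threshold with the largest changes or counted among few, the 3 nearest profiles of members changed at least 2-fold, and the chromosomal neighbours of Has2, Hyal1 and Hyal2; some genes that this rule takes are not reported here. Same-numbered arrays of the groups are not said to share a day. Other settings tried were array medians subtracted, quantile-normalized arrays, the dimmest 30% or 50% of genes left out, rows of a gene averaged, every transcript cluster tested, a trended and robust variance, no moderation, the replicate number as a block, each array left out in turn and at least a 2-fold change. The 2-fold setting was applied to counts only, so alternatives given for single genes leave it out. The dimmer Has2 row was added after seeing the data.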

Additional observations from a re-analysis of the deposited data

How the results depend on the processing

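Vcan, Hyal1 and Cd44 kept their direction and stayed past the threshold under all 15 other settings with no minimum fold, with log2 fold changes of 1.59 to 1.66, 1.48 to 1.54 and 0.39 to 0.51. The count of changed members was 3 or 4 under these, the fourth being Hyal2. Requiring at least a 2-fold change left 2 of the members, 6 of the 30 changed pathway genes (1 rose, 5 fell) and 1367 of the 5814 changed genes, by construction. Leaving out 1 array at a time gave 4523 to 4976 changed genes and 23 to 27 changed pathway genes. Same-numbered arrays did not pair: their deviations from the group means correlated at -0.07, 0.01 and 0.00. With the replicate number as a block 4926 genes, 25 pathway genes and 3 members were called. Of the 30 changed pathway genes 21 kept the call under every alternative with no minimum fold in which they were tested. Signals below the median of all transcript clusters, such as those of Has1 and Has3, may not exceed background.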

Other observations

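Of the 7 measured protein-coding genes nearest to Has2 on chromosome 15, 5 fell and 2 did not pass the test. The fall was not limited to these neighbours: 320 of the 596 brighter genes of chromosome 15 fell, with a median log2 fold change of -0.40. Over all chromosomes 2708 of the 14910 genes brighter than 4.53 rose and 2731 fell, with a median of 0.00. Zhx2, a zinc finger and homeobox repressor, was at 7.63 ± 0.01 in p53 R273H arrays and 8.97 ± 0.11 in empty vector arrays (SD, n = 3 each), a log2 fold change of -1.34 ± 0.10 (SE; limma adjusted p = 4.27e-05). Mrpl13, Mtbp, Derl1 and Wdr67 had log2 fold changes of -0.51, -0.49, -0.38 and -0.63. The immediate neighbours, Sntb1 and Slc22a22, lay below 4.53, the median signal of the arrays, at 3.48 and 3.19 in p53 R273H arrays and 3.40 and 3.14 in empty vector arrays. Zhx2, Mrpl13, Mtbp, Derl1 and Wdr67 were named after their values were seen.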
